A study of Mus musculus with 6 samples.

Results

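The S100 genes encode a family of small calcium-binding proteins, and 10 of them were followed here in mouse dorsal neck skin: *S100a1*, *S100a4*, *S100a6*, *S100a8*, *S100a9*, *S100a10*, *S100a11*, *S100a14*, *S100a16* and *S100b*. They were picked by name, as the rows of the deposited count table whose Ensembl identifiers carry these symbols in GENCODE release M21 on GRCm38. They are 10 of 26579 genes in the table, and all 10 reached the level needed for testing, 1 CPM or more in no fewer than 3 libraries (CPM is the count relative to library size, scaled by the TMM method). RNA-Seq was carried out on whole skin punch biopsies from 3 YAP2-5SA-∆C transgenic (TG) and 3 wild type (WT) mice, all female littermates 33 days old (P33). The transgene is a mildly active mutant of the transcriptional cofactor YAP that is made in basal keratinocytes, and the TG mice were taken when the first visible skin changes had appeared. The comparison asks which transcripts differ in skin in which basal keratinocytes carry active YAP. Because the whole biopsy was sequenced, more cells of a type and more RNA per cell cannot be told apart in any value below.

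S100 proteins work mostly as dimers that open a hydrophobic surface when calcium binds to their EF-hands, and this surface grips target proteins such as annexins. Some act inside the cell on the cytoskeleton, membranes and proliferation, and some are released by damaged or inflamed tissue and signal through receptors such as RAGE and TLR4. Many of the genes lie within the epidermal differentiation complex, a stretch of genes for the outer layers of the skin, and several S100 proteins are well known markers of inflamed or thickened epidermis.

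Counts on genes ran from 11225705 to 19505036 per library, with WT replicate 3 the shallowest. In multidimensional scaling (MDS) on the top 500 genes, the WT libraries lay between -1.20 and -0.51 on the first dimension, TG replicates 1 and 3 at 0.30 and 0.26, and TG replicate 2 at 2.24. TG replicate 2 therefore stood apart, and for many of the genes, not all, results are given with and without it. The fit without it called more of all tested genes than the fit on all 6 libraries. Keratins of basal and suprabasal keratinocytes, collagens of fibroblasts and hair keratins were abundant in all 6 libraries, and each biopsy also held skeletal muscle transcripts, between 3743 and 16855 CPM of a list of 6.

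Of the 10 S100 genes, only *S100a11* passed the threshold, and it was higher in TG skin. It rose 1.49-fold, with FDR = 0.0467 (Benjamini-Hochberg adjusted p-value of edgeR's quasi-likelihood test over 15102 genes, threshold 0.05). In the same test 1.91% of all tested genes were called, 1.44% as higher and 0.464% as lower. The test called 0 of the 10 as lower, where 3 had an unadjusted p under 0.05, the likelihood-ratio test of edgeR called 1, DESeq2 called 2 and voom called 0, against 4.87%, 4.26% and 0.417% of all genes called lower by these tools. As higher, the likelihood-ratio test and DESeq2 called 2 of the 10 and voom 0, against 5.52%, 6.48% and 1.23% of all genes. *S100a4* had a larger estimated difference in the same direction, and *S100a1*, *S100a6* and *S100a16* lay lower in every TG library than in any WT library, but none of these 4 passed. Thus 5 of the 10 genes had groups that did not overlap, 2 with TG above WT and 3 with TG below, against 33.8% of all tested genes, 15.5% with TG above and 18.3% below. At an unadjusted quasi-likelihood p under 0.05 the count was also 5 of 10, with 2 higher and 3 lower, beside 26.3% of all tested genes, 13.3% higher and 13% lower. The median log2 fold change of the 10 was 0.16, with 6 positive and 4 negative, against a median of -0.01 over all tested genes.

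**Figure D1:**
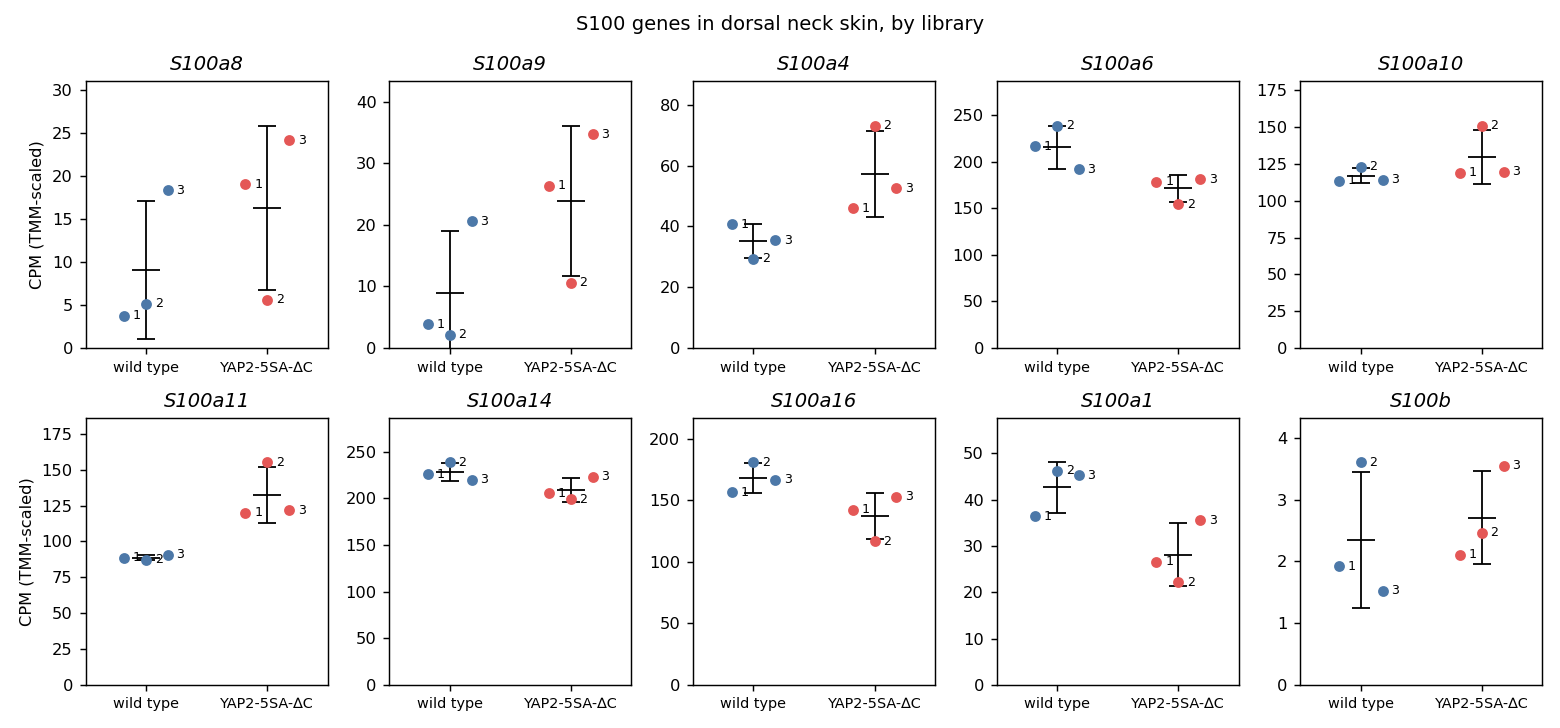
Level of each of the 10 S100 genes by library (y axis, TMM-scaled CPM from 0), with points numbered by replicate, blue for WT and red for TG, and the mean and SD of each group (n = 3) in black, cut at 0 for *S100a9*. The 3 TG points of *S100a11* (120.1 to 155 CPM) lie above the 3 WT points (87.1 to 90.6 CPM), whereas those of *S100a8* and *S100a9* overlap the WT points.

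*S100a11* (ENSMUSG00000027907, chromosome 3 of GRCm38 from 93520488 to 93526287, plus strand) encodes a protein that binds annexins and takes part in the calcium-dependent growth control of keratinocytes. Its level was 88.6, 87.1 and 90.6 CPM in WT replicates 1, 2 and 3 and 120.1, 155 and 122 CPM in TG replicates 1, 2 and 3. All TG libraries lay above all WT libraries, the WT libraries were close together, and TG replicate 2 was the highest. The means were 88.8 ± 1.75 CPM in WT and 132 ± 19.8 CPM in TG (SD, n = 3 each). On the log2 scale the fold change was 0.58 with a standard error of 0.10 and a 95% interval from 0.33 to 0.82. The call was close to the threshold and depended on the libraries: without TG replicate 2 the log2 fold change was 0.46 with FDR = 0.0131 (edgeR quasi-likelihood), whereas the gene was no longer called when WT replicate 1, 2 or 3 was left out (FDR = 0.0788, 0.188 and 0.144) or TG replicate 1 or 3 (FDR = 0.0677 and 0.0906). The estimate stayed between 0.46 and 0.66 in these 6 fits. Calls over all tested genes moved likewise, with more than in the main fit without TG replicate 2 and fewer in each of the other fits. Voom gave FDR = 0.0534, the likelihood-ratio test of edgeR 0.00501 and DESeq2 7.7e-05. A pseudogene annotated as *S100a11-ps* was not analysed here, and reads that fit both it and *S100a11*, which had 11001 counts in all, would not have been counted as unique.

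The RefSeq promoter windows, which run from 250 bases before to 50 after each annotated start, covered 8 of the 10 genes in 9 windows (GRCm38.p6), and *S100a10* and *S100a14* were not among them. They were searched on both strands for the core letters bound by TEAD factors, the DNA-binding partners of YAP (GGAATG), and for the AP-1 letters (TGANTCA). The TEAD letters were in 0 of the 9 windows, and in 14.7% of the 32851 windows of all genes. Those of AP-1 were in 2 of the 9 windows, those of *S100a11* and *S100a16*, and in 7.81% of all windows. The stretches that hold these letters are shown because they fall in a window of the gene that was called and of a gene with the opposite sign. The window of *S100a16*, from 90540896 to 90541195, lies inside its gene model, which starts at 90537254. The AP-1 match is in capitals, 5′ to 3′ on the plus strand.
S100a11, chr3:93520351-93520375, match at base -136 from the start site: gagacctgtTGAGTCAcagggacta
S100a11, chr3:93520449-93520473, match at base -38: ggcacagccTGAGTCAggctgaggg
S100a16, chr3:90540945-90540969, match at base -192: ccaccttttTGAATCAgatggtgtg
Such a match is a description of the sequence and no evidence of binding, and a window without one says nothing about the factor.

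*S100a10* (ENSMUSG00000041959, chromosome 3 from 93555080 to 93564643) is the nearest of the 10 genes to *S100a11*, and its protein, the partner of annexin A2, has lost the ability to bind calcium. Its level was 114, 123 and 114 CPM in WT and 119, 151 and 119.8 CPM in TG replicates 1, 2 and 3. The groups overlapped, and TG replicate 2 was again the highest library. The log2 fold change was 0.15 (standard error 0.10, 95% interval -0.09 to 0.39, edgeR quasi-likelihood FDR = 0.383) and 0.05 without TG replicate 2.

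*S100a4* (ENSMUSG00000001020, chromosome 3 from 90603771 to 90606045) encodes a protein of motile cells, among them fibroblasts and macrophages, that binds non-muscle myosin. It was at 40.7, 29.5 and 35.5 CPM in WT and at 45.9, 73.2 and 52.6 CPM in TG replicates 1, 2 and 3. Every TG library was above every WT library, and the gap between the highest WT and the lowest TG library was small beside the spread within TG skin. The means were 35.2 ± 5.63 and 57.2 ± 14.2 CPM (SD, n = 3 each), and the log2 fold change was 0.70 with a standard error of 0.19 and FDR = 0.0821 in edgeR's quasi-likelihood test. The likelihood-ratio test and DESeq2, which called 10.4% and 10.7% of all genes they tested, gave FDR = 0.0103 and 0.00402, and voom, which called 1.65%, gave 0.0895. Without TG replicate 2 the log2 fold change was 0.50 (edgeR quasi-likelihood FDR = 0.0815). *S100a4* overlaps the gene model *Gm42674* on the same strand, which was not analysed here.

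Macrophage markers were set beside *S100a4*. The summed level of 8 listed markers was 481 to 581 CPM in WT and 706 to 785 CPM in TG skin, and 2 of the 8, *Mrc1* and *Csf1r* (the latter named after its values were seen), passed as higher (edgeR quasi-likelihood FDR = 0.0341 and 0.0456). As higher, voom called 2 of the 8, the likelihood-ratio test 5 and DESeq2 6, with 7 at an unadjusted quasi-likelihood p under 0.05. In all 8 every TG library was above every WT library. *Mrc1*, the mannose receptor of tissue macrophages, and *Lyz2*, lysozyme, which did not pass (FDR = 0.0505), were the most abundant of the 8, with *Mrc1* at 151 to 164 CPM in WT and 211 to 241 CPM in TG and *Lyz2* at 116 to 149 and 184 to 207 CPM. Of 5 Langerhans and dendritic cell markers, led by *Cd74* and *Epcam*, 3 were called higher by the quasi-likelihood test and by voom. The likelihood-ratio test and DESeq2 called 4 each. The sum of the 5 was 318 to 360 CPM in WT and 422 to 485 CPM in TG. *Cd74* was among the 3 (FDR = 0.0436), whereas *Epcam* was at 102 to 123 CPM in WT and 112 to 116 CPM in TG (FDR = 0.965, same test). A list of 6 fibroblast genes led by *Col3a1* and *Col1a1* had 0 calls in the quasi-likelihood test, with 3 of 6 at an unadjusted p under 0.05 and 0 calls by the likelihood-ratio test and voom but 2 by DESeq2, and sums of 9431 to 12776 CPM in WT and 12229 to 15904 CPM in TG. None of these markers was at 0 in every library. The part of these cells in the *S100a4* values was not tested.

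*S100a8* (ENSMUSG00000056054, chromosome 3 from 90668978 to 90670035) and *S100a9* (ENSMUSG00000056071, from 90692632 to 90695721, minus strand) encode the subunits of calprotectin, a dimer that neutrophils carry in large amounts and that keratinocytes make in inflamed or wounded epidermis. *S100a8* was at 3.79, 5.17 and 18.3 CPM in WT and at 19.0, 5.64 and 24.2 CPM in TG replicates 1, 2 and 3. *S100a9* was at 3.84, 2.19 and 20.6 CPM in WT and at 26.4, 10.6 and 34.7 CPM in TG replicates 1, 2 and 3. For both genes WT replicate 3 was well above the other WT libraries and TG replicate 2 well below the other TG libraries, so that the groups overlapped.

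The mean of *S100a8* was 9.09 ± 8.03 CPM in WT and 16.3 ± 9.57 CPM in TG (SD, n = 3 each), and its log2 fold change was 0.88 with a 95% interval from -0.79 to 2.54 and FDR = 0.462 (edgeR quasi-likelihood). That of *S100a9* was 8.88 ± 10.2 CPM in WT and 23.9 ± 12.2 CPM in TG, with a log2 fold change of 1.47, an interval from -0.48 to 3.43 and FDR = 0.298. These intervals are the widest among the 10 genes and reach from a decrease to a large increase, so the data do not settle a direction. The estimates depended on single libraries in both directions. Without WT replicate 3 the log2 fold changes were 1.87 (FDR = 0.211) for *S100a8* and 3.00 (FDR = 0.142) for *S100a9*. They were 0.50 and 1.11 without WT replicate 1, 0.58 and 0.99 without WT replicate 2, and 0.47 and 1.10 without TG replicate 3. Without TG replicate 2 they were 1.32 (FDR = 0.267) and 1.88 (FDR = 0.238) in the same test.

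The ratio of the transcripts was lower in each TG library than in any WT library. The ratio of *S100a8* to *S100a9* CPM was 0.986, 2.36 and 0.889 in WT and 0.722, 0.533 and 0.697 in TG replicates 1, 2 and 3. Relative to *S100a9*, every TG library held less *S100a8* than every WT library, and WT replicate 2, which had 99 *S100a8* counts and 42 *S100a9* counts, had the highest ratio. The log2 ratio was 0.35 ± 0.77 in WT and -0.63 ± 0.24 in TG (SD, n = 3 each), which makes a TG minus WT difference of -0.98 (exact permutation test, two-sided, p = 0.1). Without WT replicate 2 the difference was -0.54. No smaller p can be had with 3 libraries in each group.

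**Figure D2:**
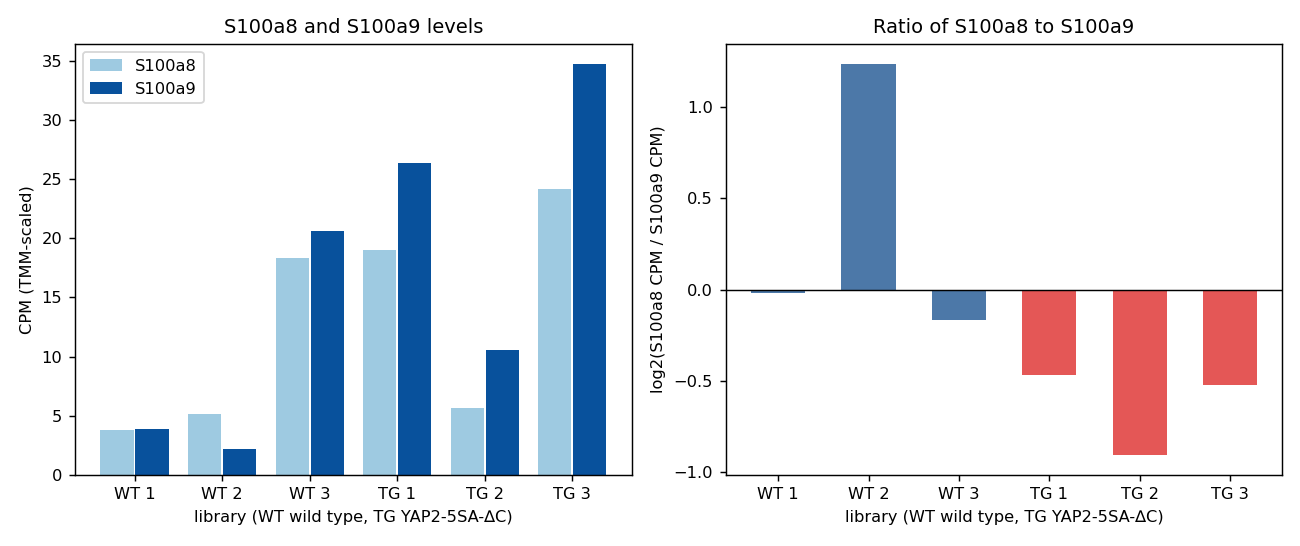
Left, level of *S100a8* (light) and *S100a9* (dark) in each library (y axis, TMM-scaled CPM); right, log2 of the ratio of the first to the second, with WT in blue and TG in red. WT replicate 3 reaches 18.3 and 20.6 CPM, above TG replicate 2 (5.64 and 10.6 CPM), and the 3 log2 ratios of TG skin (-0.91 to -0.47) are below the 3 of WT skin (-0.17 to 1.24).

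Neutrophil markers were set beside this pair. Of 11 listed markers 10 were analysed here, and only *Cxcr2* and *Csf3r*, receptors for chemokines and for a growth factor of neutrophils, were high enough to be tested, while the other 8 stayed at or below 1.12 CPM in every library. *Cxcr2* rose from 5.10, 6.22 and 7.60 CPM in WT to 14.04, 13.2 and 11.6 CPM in TG (log2 fold change 1.05, edgeR quasi-likelihood FDR = 0.0401), and *Csf3r* was at 4.02 ± 0.826 and 11.5 ± 4.18 CPM (SD, n = 3 each) with FDR = 0.0531. The sum of the list, most of which came from *Cxcr2* and *Csf3r* in every library, was 9.27 to 13.5 CPM in WT and 21.6 to 31.0 CPM in TG. These sums did not overlap. The summed CPM of *S100a8* and *S100a9* had a different order, at 7.63, 7.36 and 38.9 in WT and 45.4, 16.2 and 58.8 in TG, where WT replicate 3 exceeded TG replicate 2. A list of 5 keratinocyte stress genes, in which 3 were called higher, gave 1211, 1614 and 1431 CPM in WT and 2140, 1323 and 2471 CPM in TG, with TG replicate 2 inside the WT range. Its most abundant genes were *Krt17* and *Krt6a*. *Krt17* was below WT in every TG library, at 960, 1211 and 1028 CPM in WT and 729, 474 and 868 CPM in TG (edgeR quasi-likelihood FDR = 0.128), and it takes the largest share of the sum in WT. *Krt6a* was at 152, 260.2 and 189.6 CPM in WT and 547, 262 and 641 CPM in TG, and like *Krt6a*, the other 3 genes of the list were above every WT library in every TG library. The share of either source in the *S100a8* and *S100a9* counts was not tested.

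**Figure D3:**
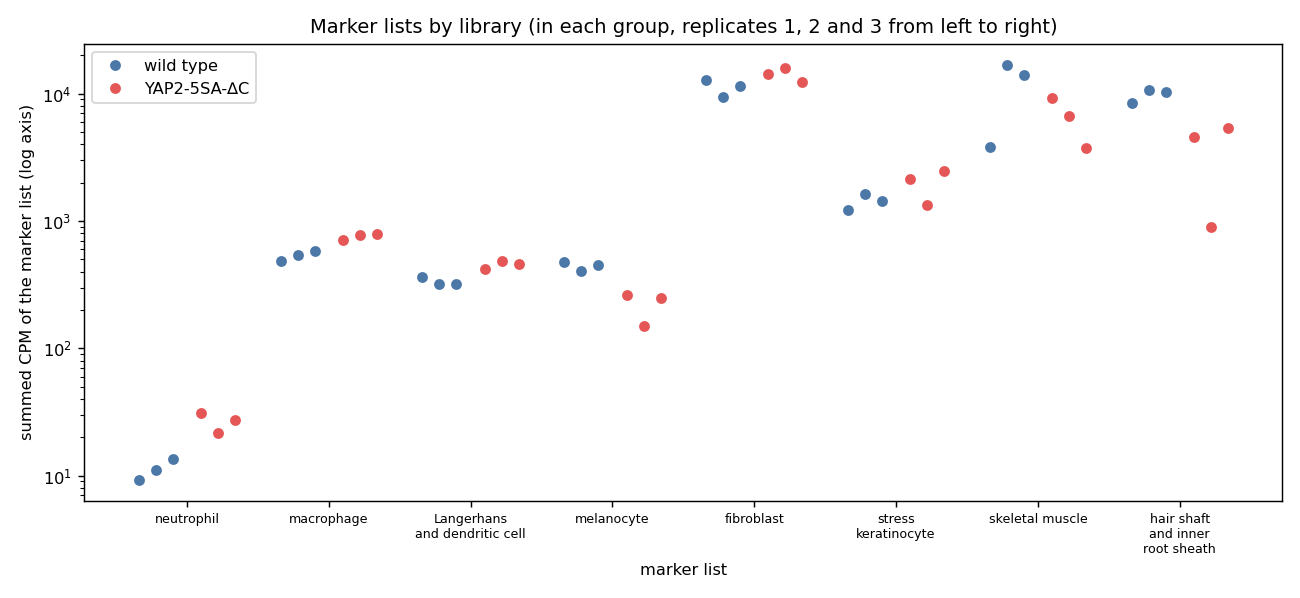
Summed CPM of marker lists in each library (log y axis), with blue points for WT and red for TG, replicates 1 to 3 from left to right in each group. TG points lie above WT points for the neutrophil, macrophage and Langerhans and dendritic cell lists and below them for the melanocyte and hair lists, and TG replicate 2 (904 CPM) is the lowest of the hair list.

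*S100a6* (ENSMUSG00000001025, chromosome 3 from 90612882 to 90624181) encodes calcyclin, a protein of proliferating epithelial cells and fibroblasts. It was at 216, 238 and 192 CPM in WT and at 178, 154 and 181 CPM in TG replicates 1, 2 and 3. The TG libraries were all below the WT libraries by a narrow margin. The means were 215 ± 23.1 and 171 ± 14.8 CPM (SD, n = 3 each), and the estimate was -0.33 on the log2 scale with a standard error of 0.10 and FDR = 0.0986 (edgeR quasi-likelihood). DESeq2 called it (FDR = 0.0443), while the likelihood-ratio test did not (FDR = 0.177). Over 6 fits without 1 library the log2 fold change ran from -0.40 to -0.25 (edgeR quasi-likelihood FDR = 0.129 to 0.264).

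*S100a1* (ENSMUSG00000044080, chromosome 3 from 90511034 to 90514392, minus strand) encodes the S100 protein of heart and skeletal muscle, where it regulates calcium release. It was at 36.4, 46.2 and 45.3 CPM in WT and at 26.6, 22.2 and 35.5 CPM in TG replicates 1, 2 and 3. TG replicate 3 came close to WT replicate 1, with no overlap. The means were 42.6 ± 5.44 and 28.1 ± 6.78 CPM (SD, n = 3 each), and the log2 fold change came to -0.60 with a standard error of 0.18 and FDR = 0.0965 in edgeR's quasi-likelihood test, against 0.0272 in the likelihood-ratio test and 0.0199 in DESeq2. Without TG replicate 2 the log2 fold change was -0.44 (edgeR quasi-likelihood FDR = 0.172).

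Skeletal muscle transcripts varied widely between biopsies. The sum of 6 muscle genes led by *Ttn* and *Myh4* was 3781, 16855 and 14065 CPM in WT and 9160, 6662 and 3743 CPM in TG replicates 1, 2 and 3, so WT replicate 1 and TG replicate 3 held the least. Within WT the muscle sum and *S100a1* stood in the same order, lowest in replicate 1 and highest in replicate 2, whereas in TG replicate 3 had the least muscle and the most *S100a1*. All 6 muscle genes had negative estimates, with a median log2 fold change of -1.07. The quasi-likelihood test called 0 of the 6 muscle genes, with 0 at an unadjusted p under 0.05, and voom, the likelihood-ratio test and DESeq2 called 0. How much of the *S100a1* level comes from muscle was not tested.

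*S100a14* (ENSMUSG00000042306, chromosome 3 from 90526856 to 90528837) and *S100a16* (ENSMUSG00000074457, from 90537254 to 90543151) are neighbours, and the first is largely a gene of epithelia. *S100a14* was at 226, 239 and 219.8 CPM in WT and at 205, 199 and 223 CPM in TG replicates 1, 2 and 3, with overlap. Its log2 fold change was -0.13 with a 95% interval from -0.28 to 0.03 (edgeR quasi-likelihood FDR = 0.274), and -0.075 without TG replicate 2 (FDR = 0.621). *S100a16* was at 157, 181 and 167 CPM in WT and at 142, 117 and 153 CPM in TG replicates 1, 2 and 3. There was no overlap, and WT replicate 1 and TG replicate 3 were close. Its log2 fold change was -0.29 with an interval from -0.55 to -0.03 (edgeR quasi-likelihood FDR = 0.149), and -0.17 without TG replicate 2. Over the same libraries, 5 basal keratinocyte markers led by *Krt14* and *Krt5* summed to 3118 to 3816 CPM in WT and 5296 to 6836 CPM in TG. The quasi-likelihood test and voom called 1 of the 5 higher, the likelihood-ratio test 2 and DESeq2 4, with 4 at an unadjusted p under 0.05. Suprabasal markers, 5 led by *Krt10* and *Krt1*, summed to 4286 to 5119 CPM in WT and 5344 to 9576 CPM in TG. Of these, 0 were called by the quasi-likelihood test and voom and 1 by the likelihood-ratio test and by DESeq2, with 1 of 5 at an unadjusted p under 0.05. The sums of both keratinocyte lists were above WT in every TG library and highest in TG replicate 2, as was *S100a11*, whereas *S100a14* and *S100a16* had negative estimates. The part of keratinocyte content in these S100 values was not tested.

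*S100b* (ENSMUSG00000033208, chromosome 10 from 76253853 to 76261159) is the only one of the 10 outside chromosome 3, and its protein is known from glia and also from melanocytes. It was the lowest of the 10, with 35, 69 and 16 counts in WT and 38, 42 and 57 in TG replicates 1, 2 and 3. On the CPM scale these were 1.92, 3.60 and 1.52 in WT and 2.11, 2.47 and 3.55 in TG, with the highest library in WT. The log2 fold change was 0.17 with a 95% interval from -0.66 to 1.00 (edgeR quasi-likelihood FDR = 0.795), so neither a moderate rise nor a moderate fall can be told from no difference. Without WT replicate 2 it was 0.63, and in the other fits without 1 library it ran from -0.067 to 0.34. It overlaps *Dip2a* on the opposite strand, and since the strand setting of the counting is not given in the sources used here, reads of these genes may not be separable. Beside it, *Mbp*, for myelin basic protein of glia, was at 31.8, 41.5 and 36.7 CPM in WT and 41.9, 49.3 and 38.5 CPM in TG, with overlap (log2 fold change 0.24, edgeR quasi-likelihood FDR = 0.276). Other glial genes did not share a sign, with estimates of -0.12 for *Sox10*, a glial and melanocyte factor, and 0.52 for *Cdh19*, a cadherin of Schwann cells with no overlap of the groups (FDR = 0.0904), both named after their values were seen. A list of 5 adipocyte genes, a cell type in which *S100b* is also found, was led by *Fabp4* and *Adipoq* and summed to 621, 868 and 713 CPM in WT and 543, 683 and 899 CPM in TG, with 0 called by each of the 4 tools and 0 at an unadjusted p under 0.05. In turn, 5 melanocyte markers led by *Dct* and *Tyrp1* summed to 407 to 477 CPM in WT and 151 to 261 CPM in TG, and *Dct* and *Tyrp1* were both called lower (FDR = 0.0467 each, edgeR quasi-likelihood).

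**Figure D4:**
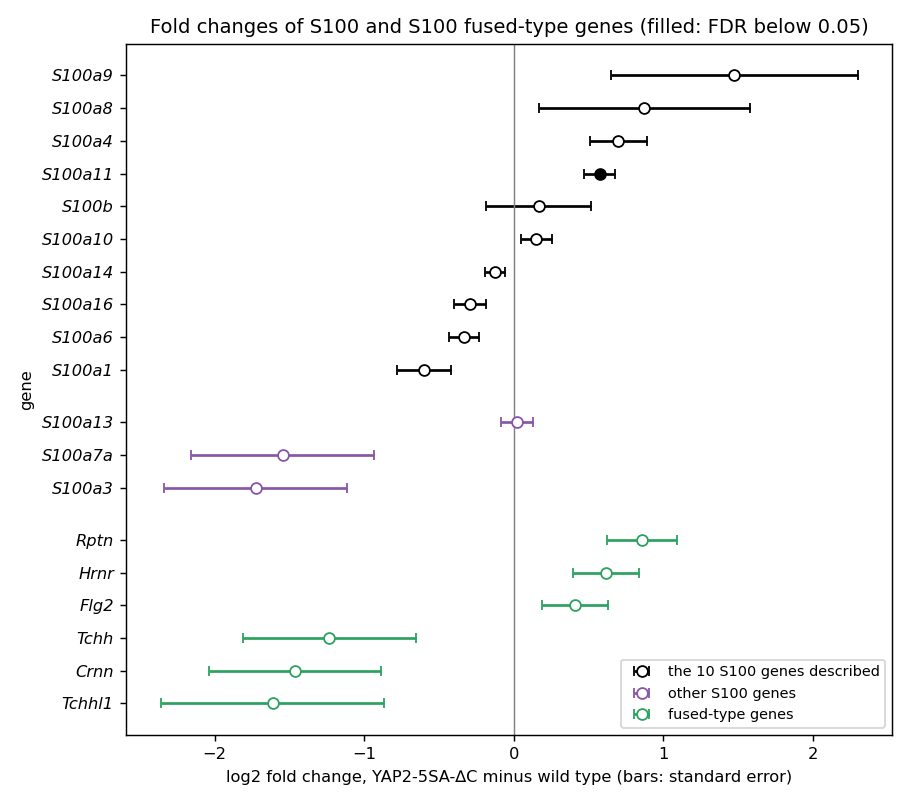
Log2 fold change of TG against WT (x axis, bars 1 standard error either side) for the 10 S100 genes, the other tested S100 genes and the fused-type genes, with filled points where the quasi-likelihood FDR is below 0.05. Only *S100a11* is filled; the widest bars among the 10 belong to *S100a9* and *S100a8*, and *S100a3* and *Tchhl1* lie farthest below 0.

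Levels of different genes were compared per kilobase of exon. The length joined all annotated exons of a gene, 511 bases for *S100a11* and 1367 for *S100a6*. Where the transcripts in skin are shorter than this, the value is too low, so the order depends on this choice of length. By CPM alone *S100a6*, at a mean of 215 in WT, was above *S100a11*, at 88.8. In WT skin the order by CPM per kilobase was *S100a11* (174 ± 3.42), *S100a6* (158 ± 16.9), *S100a14* (132 ± 5.52), *S100a16* (104 ± 7.55), *S100a10* (96.5 ± 4.31), *S100a1* (61.4 ± 7.84), *S100a4* (60.3 ± 9.64), *S100a9* (17.0 ± 19.5), *S100a8* (13.1 ± 11.6) and *S100b* (1.58 ± 0.745; SD, n = 3 each). Of neighbours in this order, *S100a11* and *S100a6* had overlapping libraries, as did *S100a16* and *S100a10*, *S100a1* and *S100a4*, and *S100a9* and *S100a8*. In TG skin *S100a11* again had the highest mean, 259 ± 38.7 CPM per kilobase, followed by *S100a6* at 125 ± 10.8. *S100a4* moved from place 7 to place 5 with 98.0 ± 24.3 and *S100a1* from place 6 to place 8 with 40.5 ± 9.77 CPM per kilobase. *S100a16* moved from place 4 to place 6, *S100a10* from place 5 to place 4 and *S100a9* from place 8 to place 7. These places and changes of place are a description of the means on this length.

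The summed level of the 10 genes depended on the scale. Their CPM summed to 887, 954 and 905 in WT and 885, 890.1 and 949 in TG replicates 1, 2 and 3, with overlap of the groups and means of 916 ± 34.7 and 908 ± 35.9 CPM (SD, n = 3 each). Per kilobase of all annotated exons, the short *S100a11* weighs more. On that scale the sums were 789, 827 and 835 in WT and 866, 916 and 938 in TG, with every TG library above every WT library. The TG libraries did not stand in 1 order for all genes of this sum. TG replicate 2 was the highest TG library for *S100a4*, *S100a10* and *S100a11*, and the lowest for *S100a1*, *S100a6*, *S100a8*, *S100a9*, *S100a14* and *S100a16*.

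Of 8 other S100 genes, 7 were analysed here and 3 were tested, and *S100a2*, *S100a5*, *S100a7l2* and *S100z* were below the level for testing. The quasi-likelihood test of edgeR called 0 of the 3, although 2 had an unadjusted p under 0.05 and the likelihood-ratio test called the same 2, while voom and DESeq2 called 0. *S100a3*, the S100 gene of the hair cuticle, was at 419.6, 528 and 506 CPM in WT and at 206, 31.1 and 203 CPM in TG replicates 1, 2 and 3. All TG libraries were below the WT libraries and TG replicate 2 far below the others. The log2 fold change was -1.73 (standard error 0.61, quasi-likelihood FDR = 0.136), and without TG replicate 2 it was -1.23 with FDR = 0.00824. *S100a7a*, a relative of human psoriasin, had the same profile at 26.7, 42.0 and 35.7 CPM in WT and 15.2, 2.41 and 18.2 CPM in TG, with a log2 fold change of -1.54 (quasi-likelihood FDR = 0.167) and of -1.04 without TG replicate 2 (FDR = 0.0336). The fit without that library also called more of all tested genes than the fit on all libraries. A list of hair shaft and inner root sheath keratins led by *Krt71* and *Krt25*, with 0 of 5 called by the quasi-likelihood test, voom and DESeq2, 5 of 5 at an unadjusted p under 0.05 and 5 called by the likelihood-ratio test, gave 8370, 10615 and 10212 CPM in WT and 4587, 904 and 5343 CPM in TG, with the lowest value in the same library. The part of hair content in these S100 values was not tested.

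The fused-type genes join an S100 domain to the repeats of a cornified envelope or hair protein. Of 7 listed, 6 were analysed here and tested, and 0 passed the quasi-likelihood test, with 3 at an unadjusted p under 0.05. The likelihood-ratio test called 4 of them, 2 in each direction, DESeq2 called 2 as higher, and voom called 0. *Rptn*, for repetin of the granular layer, was at 64.2, 108 and 129.8 CPM in WT and 196, 174 and 177 CPM in TG (log2 fold change 0.86, standard error 0.23, edgeR quasi-likelihood FDR = 0.0798). *Hrnr*, for hornerin of the cornified envelope, was at 1090.1, 1009.9 and 1082 CPM in WT and 1499.6, 2221 and 1166 CPM in TG (log2 fold change 0.62, FDR = 0.136), and without TG replicate 2, its highest library, the log2 fold change was 0.35 (FDR = 0.146). In both genes every TG library was above every WT library, and in 3 of the other fused-type genes every TG library was below. Of these 3, *Crnn*, for cornulin and named here after its values were seen, was at 222, 307 and 327 CPM in WT and 133, 25.2 and 152 CPM in TG. Its log2 fold change was -1.46 (quasi-likelihood FDR = 0.165). It was called lower when TG replicate 2 was left out (log2 fold change -0.98, quasi-likelihood FDR = 0.0256), in a fit that called more of all tested genes.

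In the quasi-likelihood test on all 6 libraries, receptors and binding partners of S100 proteins gave no call either. Of 6 receptor genes the quasi-likelihood test called 0, with 0 at an unadjusted p under 0.05, and the likelihood-ratio test, voom and DESeq2 called 0. *Tlr4*, which answers to calprotectin, was at 18.2 ± 2.54 CPM in WT and 21.6 ± 1.25 CPM in TG (SD, n = 3 each; quasi-likelihood FDR = 0.225), and *Nptn*, for neuroplastin, at 112 ± 4.56 and 119.7 ± 2.78 CPM (FDR = 0.333). Among 8 partner genes 0 were called by that test, 2 had an unadjusted p under 0.05, both higher, the likelihood-ratio test called 1, DESeq2 2 and voom 0. *Anxa2*, the annexin that pairs with S100A10 and also binds S100A11, was at 496, 466 and 454 CPM in WT and 564, 716 and 627 CPM in TG replicates 1, 2 and 3. Like *S100a11*, it was above WT in every TG library and highest in TG replicate 2, with a log2 fold change of 0.43 (standard error 0.10, edgeR quasi-likelihood FDR = 0.0621) and of 0.35 without that library (FDR = 0.0488). More of all tested genes were also called without TG replicate 2 than with it. *Anxa5* was at 123 ± 6.30 and 152 ± 15.1 CPM (log2 fold change 0.31, quasi-likelihood FDR = 0.0812).

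Of the 10 genes, 9 lie on chromosome 3 of GRCm38 between 90511034 and 93564643, a stretch of 3054 kb whose genes were looked at after their values were seen. Of 121 annotated genes in it, 76 were analysed here and 59 of them tested, and 10 were called higher and 0 lower, where 1.44% and 0.464% of all tested genes were, with a median log2 fold change of 0.33 and a range from -1.73 to 4.01. Most of the S100 genes stand at the start of the stretch, where *S100a1*, with an estimate of -0.60, and *S100a9*, with 1.47, start 182 kb apart, and *S100a11* and *S100a10* stand at its end. Between them are the other called genes, *Pglyrp4* and *Pglyrp3* for peptidoglycan recognition proteins, *Sprr2g* and *Sprr1b* for small proline-rich proteins, and *Lce3b*, *Lce3c*, *Lce3d*, *Lce3e* and *Lce3f* for late cornified envelope proteins, with log2 fold changes from 0.70 to 4.01. The estimate of *S100a11*, 0.58, is the smallest of the 10 calls.

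**Figure D5:**
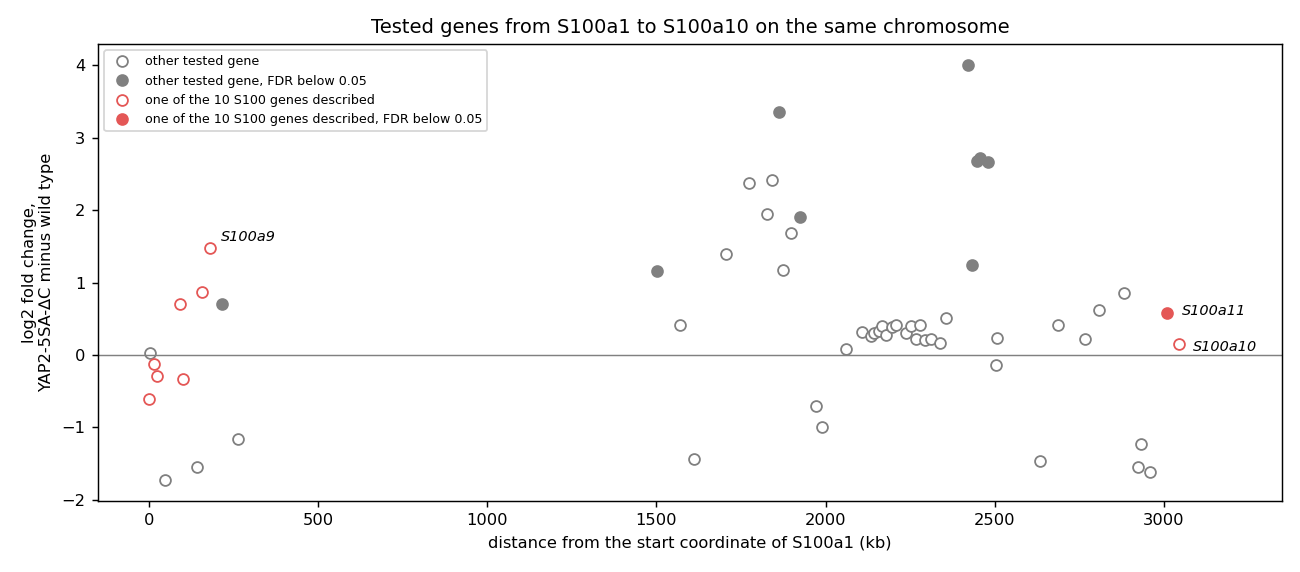
Log2 fold change of TG against WT (y axis) of the 59 tested genes of the stretch by distance from the start coordinate of *S100a1* (x axis, kb), with the S100 genes described here in red, other genes in grey and filled points for a quasi-likelihood FDR below 0.05. The S100 genes at the left lie on both sides of 0, and *S100a11* at the right is the only filled red point.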

How the data were processed

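RNA-Seq libraries of dorsal neck skin from 3 wild type and 3 YAP2-5SA-∆C mice were analysed. The values are raw counts per Ensembl gene, which the authors deposited after mapping paired-end reads to GRCm38 with TopHat2 (version 2.0.12 in the submitters' processing notes) and Bowtie2 2.1.0 and counting uniquely mapped reads with HTSeq-count. The annotation release and strand setting are not given in the sources used here. The paper describes mRNA libraries, whereas the labels name a kit for stranded total RNA.

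From the deposited counts, the 15102 of 26579 genes that reached 1 CPM in 3 or more libraries were scaled with TMM and tested with edgeR 4.0.16 (glmQLFit and glmQLFTest, genotype only) in R 4.3.3, with Benjamini-Hochberg adjustment over all tested genes. The authors' likelihood-ratio test and voom (limma 3.58.1), DESeq2 1.42.0, the earlier quasi-likelihood form, RLE and upper-quartile scaling, no filter, a minimum of 10 counts in every library, the replicate number as a block, and fits without each library were the alternatives. Steps were tested on simulated data. Intervals are 95% intervals of the log2 fold change, with a standard error that rests on the spread between these libraries. Positions and exon lengths came from GENCODE M21, which lacks 558 identifiers of the table. S100 genes, other lists and tests were chosen with earlier results of these data known. Named are all 10 genes, every gene of the other S100, fused-type, receptor and partner lists past FDR 0.05 and the 2 with the lowest p in each, and the 2 most abundant of each marker list, with exceptions stated in the text. For 1 marker list the sum and 1 gene are not reported here.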

Additional observations from a re-analysis of the deposited data

How the results depend on the processing

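The log2 fold changes of the 10 S100 genes were recomputed in 15 alternative fits, which gave 150 values. Of these 136 kept direction and side of the threshold, 7 lost the call, 5 gained one and 2 changed sign. The losses were *S100a11* with voom, with the replicate block and in 5 of the 6 fits without a library, those other than without TG replicate 2. Over all 6 its log2 fold change was 0.46 to 0.66. The gains were *S100a4* and *S100a1* with the likelihood-ratio test and *S100a4*, *S100a1* and *S100a6* with DESeq2. The count of called S100 genes, 1 of 10, was 3 with the likelihood-ratio test, 4 with DESeq2, 0 with voom and 0 to 1 without 1 library. The other S100 genes, with 0 calls, gave 2 with the likelihood-ratio test and 0 to 2 without 1 library. Fused-type genes, with 0, gave 4 and, with DESeq2, 2, and 0 to 1 without 1 library. Receptors and partners, with 0, gave 1 with the likelihood-ratio test, 2 with DESeq2 and 0 to 1 without 1 library. Of all tested genes, 288 were called, 497 without a filter, 1568 with the likelihood-ratio test and 1590 with DESeq2. Leaving out 1 library gave 0 to 817: 0 without WT replicate 2, WT replicate 3 or TG replicate 3 (2726, 2844 and 3691 at an unadjusted p under 0.05), 142 without WT replicate 1, 83 without TG replicate 1 and 817 without TG replicate 2. Signs turned among these 6 fits for *S100b* (-0.067 to 0.63), *S100a13* (-0.061 to 0.085), *Mcam* (-0.088 to 0.067), *Myh9* (-0.022 to 0.12) and *Cd36* (-0.11 to 0.18). The cause was not tested, apart from fewer libraries in each fit. RLE and upper-quartile scaling, the stricter filter and the earlier quasi-likelihood form changed no S100 call.

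The main fit did not pair the samples by replicate number. Deviations of same-numbered libraries from their group means correlated at -0.33, -0.23 and -0.05. With 3 libraries a group such correlations depend on one another, so they cannot exclude a pairing. With a replicate block 0 of the 10 S100 genes and 0 of all tested genes were called (edgeR, 2949 at an unadjusted p under 0.05), and *S100a11* had a log2 fold change of 0.57 with FDR = 0.17. *S100b* had few counts, 16 to 69 per library. With 3 mice a group, p-values set the difference between groups against the spread between these mice.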
